A study of Mus musculus with 60 samples.

Results

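The enzymes described here build haem and break it down, and 9 of them were followed in mouse liver after exposure to heavy ions. They are 7 enzymes of haem synthesis (Alas1, Alad, Uros, Urod, Cpox, Ppox and Fech) and 2 enzymes of haem breakdown (Hmox1 and Blvrb), out of 38204 genes in the deposited table. The 9 genes were chosen from earlier results of these same data, in which ion and control livers were compared, so their own ion-control values are given as a description. No p-value is printed for them, and where the number past a threshold is counted, nothing is read from it. The level of a gene is the sum of the RPKM (reads per kilobase of transcript, corrected for the number of mapped reads) of its annotated transcripts. All 9 passed the filter on low values (at least 0.5 RPKM in at least 3 libraries) in every comparison, so no enzyme is missing from any count below.

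Whole-body doses of 0.2 Gy of 56Fe (600 MeV per nucleon), 16O (1000 MeV per nucleon) or 28Si (350 MeV per nucleon) were given to male C3H/HeNCrl mice, a strain prone to liver tumours, at 8 to 10 weeks of age, and control mice received 0 Gy. Livers were taken 1, 2, 4, 9 or 12 months later from 3 mice of each group, which gives 60 libraries, 15 for each ion and 15 for the controls. Separate mice were used at every time, and the same 3 controls serve all 3 ions of that time, so those ion-control comparisons share their controls. No transgene or deletion was involved in any group. The left lobe was sequenced as bulk tissue after removal of ribosomal RNA, and in bulk tissue fewer cells of a type and less RNA per cell cannot be told apart. The hour of tissue collection is not given in the sources used here.

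Depth ran between 11412665 and 40568208 read pairs (median 18891351). Hepatocyte markers dominated every library, with a summed level of 9 genes between 16378 and 49042 RPKM. The share of mapped reads that fell in transcripts was 56.0 to 88.4% (median 81.1%) in the 36 libraries of 4, 9 and 12 months, and 43.4 to 66.4% (median 53.5%) in the 24 libraries of 1 and 2 months. Groups were therefore compared on RPKM as deposited only within a time point, and levels were rescaled between libraries before groups of different times were compared. Ranges and medians over all 60 livers, and the plots of all livers, are of RPKM as deposited and include this step. The share also differed within a time point, between 46.6% (control replicate 1) and 66.4% (28Si replicate 1) at 1 month. At 4 months it ran between 56.0% (28Si replicate 2) and 84.7% (16O replicate 3). Fold changes are on rescaled levels, whereas overlap between groups is judged on RPKM as deposited and includes these differences. At 12 months 3 libraries stood apart, replicate 1 of 56Fe, replicate 2 of 16O and replicate 2 of the controls. Their summed Kupffer cell (liver macrophage) markers were 799.6, 541 and 457 RPKM, more than 3 times the median of that time point, and results at 12 months are given with and without them.

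Haem is an iron-containing porphyrin made by a chain of enzymes that starts and ends in mitochondria. In liver, most of it goes into cytochrome P450 enzymes, and the first enzyme, 5-aminolevulinate synthase, sets the pace. Its liver gene Alas1 is held down by haem itself and is induced by drugs, by fasting and by circadian transcription factors. Haem oxygenase opens the ring of spent haem to biliverdin, iron and carbon monoxide, and biliverdin reductases then form bilirubin. In liver, haem oxygenase 1 (Hmox1) is typical of Kupffer cells that clear old red cells, and it is also induced by stress.

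The sequences upstream of these genes were searched for short motifs, and no link between a motif and the level of an enzyme was tested. RefSeq promoter windows of 250 bases before to 50 bases after a start site (GRCm38.p6) matched 7 of the 9 enzymes, with 11 windows in all. Hmox1 and Fech had no window. The windows were searched on both strands for 6 motifs: the E-box bound by CLOCK and BMAL1 (CACGTG), the NRF1 motif (GCGCATGCGC), the D-box (TTATGTAA), the ROR element (AGGTCA), the cAMP response element (TGACGTCA) and the antioxidant response element (TGACNNNGC). Of 32851 windows of the same length, 7.15% held the E-box, 0.971% the NRF1 motif, 0.938% the D-box, 16.3% the ROR element, 1.79% the cAMP response element and 12.4% the antioxidant response element. The more upstream of the 2 Alas1 windows (chr9:106247905-106248204, minus strand) is printed with its NRF1 motif in capitals, which begins 30 bases after the start site.
Alas1 promoter: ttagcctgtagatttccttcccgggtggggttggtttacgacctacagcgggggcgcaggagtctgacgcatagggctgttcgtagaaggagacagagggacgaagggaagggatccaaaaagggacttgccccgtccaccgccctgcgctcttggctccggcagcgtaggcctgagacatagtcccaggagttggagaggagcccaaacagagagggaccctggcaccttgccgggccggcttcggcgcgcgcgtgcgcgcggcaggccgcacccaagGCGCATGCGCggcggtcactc

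The E-box was present in 4 of the 11 windows, those of Alad, Uros and Urod. Each is shown with up to 10 bases on either side and the E-box in capitals, with positions counted from the start site of its own window. Both Alad windows hold one, at -105 (chr4:62520153-62520178) and at -28 (chr4:62519922-62519947). The Uros E-box at -250 lies at the edge of its window (chr7:133709530-133709545) and the Urod E-box lies at -49 (chr4:116994447-116994472). All 4 stretches are on the minus strand of GRCm38.p6.
Alad at -105: tccgaatgccCACGTGgaccccctcg
Alad at -28: gccccgccccCACGTGggcttgcgct
Uros at -250: CACGTGtgctttctca
Urod at -49: ctggatcggtCACGTGgttctcaata
The windows of Cpox, Ppox and Blvrb held none of the 6 motifs. A match is a string of letters only, and no binding was measured.

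By their range over the livers, Alas1 and Hmox1 varied more than the other enzymes. Alas1 ran between 12.1 and 363 RPKM over the 60 livers and Hmox1 between 2.49 and 67.3 RPKM, whereas the highest liver of each other enzyme was 2.28 to 3.89 times its lowest. By median RPKM, which is corrected for transcript length, Alad (145.5 RPKM), Alas1 (83.2 RPKM) and Fech (54.5 RPKM) were the most abundant. Uros (7.32 RPKM), Hmox1 (5.81 RPKM) and Ppox (5.07 RPKM) were the least abundant. Between mice of 1 group, the SD of the scaled log2 level was 0.77 for Alas1 and 0.71 for Hmox1, beside a median of 0.21 over 10013 genes with a mean of at least 1 RPKM. These 2 enzymes lay at the 98.5 and 97.9 percentile of that spread, and Urod, with an SD of 0.10, lay at the 1.23 percentile.

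**Figure D1:**
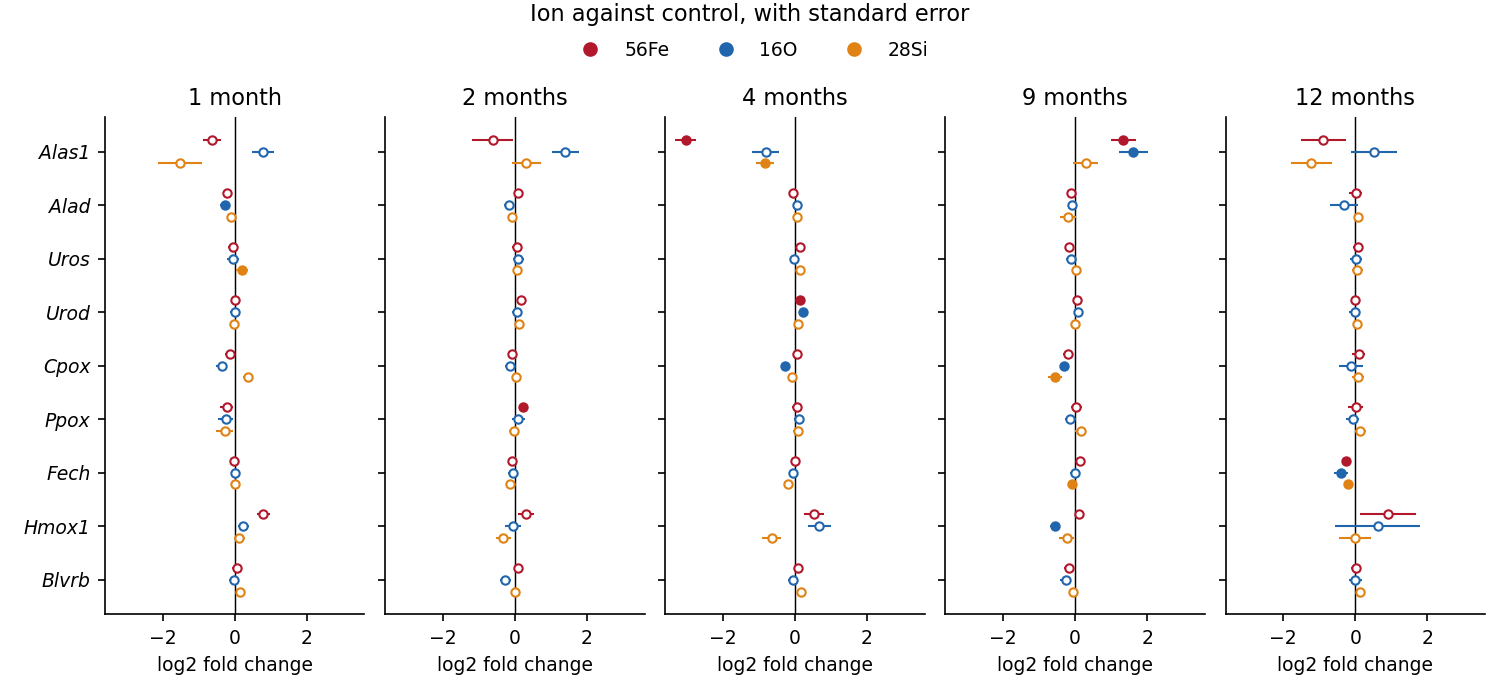
Log2 fold change of each of the 9 enzymes, ion over control, at 1, 2, 4, 9 and 12 months (56Fe red, 16O blue, 28Si orange, error bars 1 SE, n = 3 livers a group); filled points mark comparisons in which the ion and control livers do not overlap in RPKM. Alas1 spans -3.04 to 1.62, while the enzymes other than Alas1 and Hmox1 stay between -0.56 and 0.37.

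Fold changes are given on the log2(RPKM + 0.1) scale, which understates changes of genes near 0. Over the 15 comparisons of an ion with the controls of its time, 17 of the 135 values had no overlap between ion and control livers, 11 lower and 6 higher. Over all genes tested in these comparisons 14.3% of values had no overlap, 8.64% lower and 5.62% higher. All 6 values of at least 1 in either direction on the log2 scale belonged to Alas1. The median log2 fold change of the 9 enzymes lay between -0.12 and 0.10 in these comparisons, beside -0.01 to 0.01 for the median of all genes tested. As a description only, 1 of the 45 values after 56Fe lay under an adjusted p of 0.05 in limma (Alas1 at 4 months), 0 of the 45 after 16O and 0 of the 45 after 28Si. Under an unadjusted p of 0.05 lay 5 values after 56Fe, 8 after 16O and 5 after 28Si. Of all genes tested, from 244 of 11395 (16O at 12 months) to 3032 of 11343 (56Fe at 9 months) lay under that p in single comparisons. With limma-voom run on the estimated reads, 0 were called after 16O and 0 after 28Si. The share of all genes called was 1.18% at 1 month, 0% at 2 months, 0.541% at 4 months, 3.64% at 9 months and 0% at 12 months after 56Fe. It was 1.6%, 0%, 0%, 1.11% and 0.00878% at the same times after 16O. After 28Si it was 0.244%, 0.0181%, 0.373%, 0.124% and 0.0176%. These shares stand beside the counts without being read against them, since the enzymes were selected on the same contrasts.

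Alas1 (ENSMUSG00000032786, GRCm38 chr9:106233455-106248654, minus strand), which encodes the first and rate-limiting enzyme in liver, stood on opposite sides of its controls at different times after the same ion. At 4 months the 3 56Fe livers had 30.3, 16.8 and 26.2 RPKM. The 16O livers had 71.8, 192 and 107 RPKM and the 28Si livers 121, 71.3 and 111 RPKM, against 131, 233 and 256 RPKM in control livers. No 56Fe liver reached the lowest liver of any other group. Beside the 56Fe log2 fold change of -3.04 ± 0.29 (SE, n = 3 each), that of 28Si was -0.82 ± 0.25, with all 3 livers below the controls, and that of 16O was -0.81 ± 0.37, with overlap.

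At 9 months the order was turned. Alas1 had 54.8, 70.8 and 46.1 RPKM in 56Fe livers and 88.2, 39.8 and 95.2 RPKM in 16O livers, all above the 28.5, 12.1 and 31.5 RPKM of control livers. The 28Si livers, with 18.5, 29 and 28.7 RPKM, lay among the controls. The log2 fold changes were 1.33 ± 0.35 after 56Fe, 1.62 ± 0.40 after 16O and 0.29 ± 0.34 after 28Si (SE, n = 3 each).

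At 1 month Alas1 had 95.2, 84.4 and 139 RPKM in 56Fe livers, 363, 159.7 and 351 RPKM in 16O livers, 24.5, 163 and 52.6 RPKM in 28Si livers and 225, 136 and 143 RPKM in control livers. Each ion group overlapped the controls, with log2 fold changes of -0.63 ± 0.25 for 56Fe, 0.78 ± 0.30 for 16O and -1.51 ± 0.61 for 28Si (SE, n = 3 each). At 2 months the levels were 14.8, 72.9 and 66.1 RPKM in 56Fe livers, 104, 246 and 170.4 RPKM in 16O livers, 56.7, 49.6 and 153 RPKM in 28Si livers and 43.2, 47.6 and 129 RPKM in control livers, again with overlap throughout. The 16O livers were the highest group at both of these times, with a log2 fold change of 1.40 ± 0.38 at 2 months.

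At 12 months the livers of 1 group differed as much as the groups did. Alas1 had 144, 55.7 and 50.9 RPKM in 56Fe livers, 240.1, 82.0 and 283 RPKM in 16O livers, 45.6, 36.7 and 109 RPKM in 28Si livers and 56.2, 237 and 175 RPKM in control livers. The log2 fold change after 16O was 0.53 ± 0.64 with all 6 livers and 1.45 ± 0.45 without the libraries high in Kupffer cell markers. After 56Fe it was -0.88 ± 0.63 with all livers and -0.90 ± 0.44 without them, and after 28Si it was -1.22 ± 0.58 with all livers and -0.76 ± 0.53 without those libraries.

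**Figure D2:**
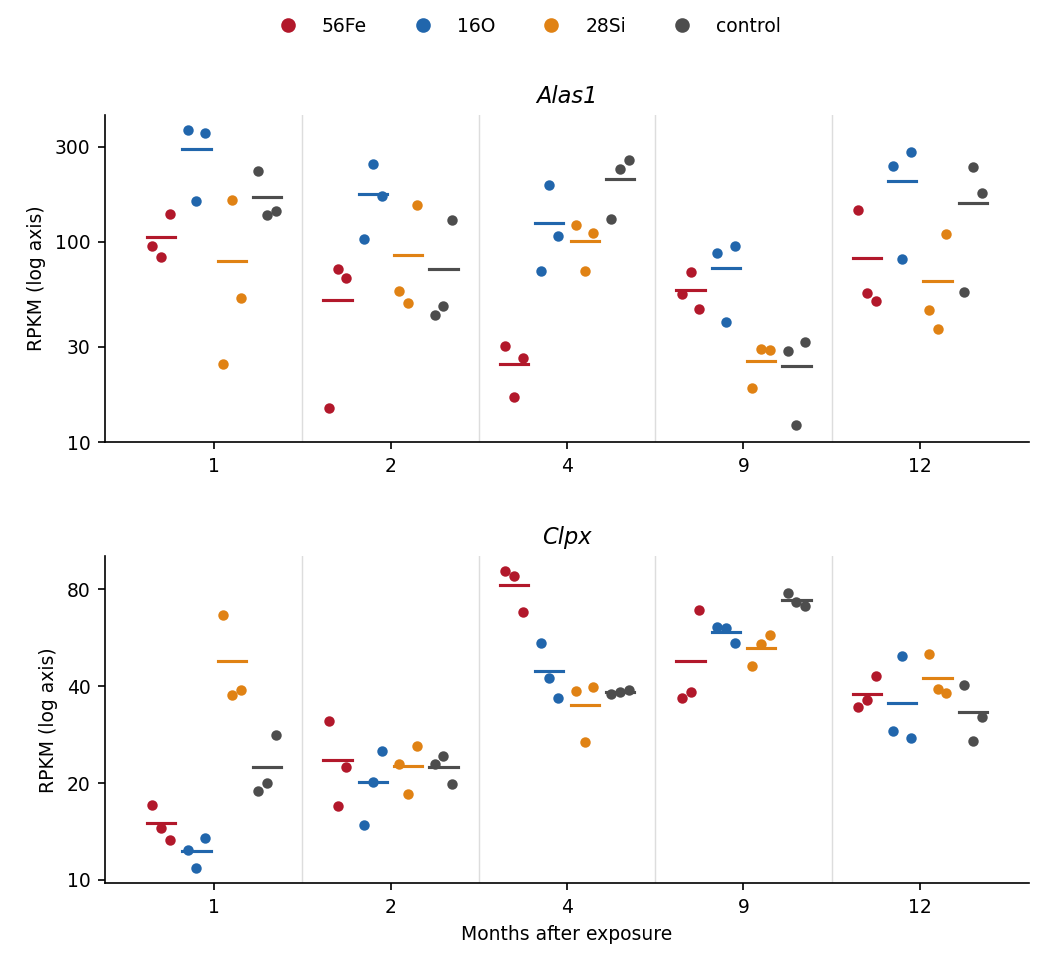
RPKM of Alas1 and Clpx in each of the 60 livers (log axis), by month after exposure and group (56Fe red, 16O blue, 28Si orange, control grey); bars mark the group mean. At 4 months the 56Fe livers are lowest for Alas1 (16.8 to 30.3 RPKM) and highest for Clpx (68.2 to 91.1 RPKM).

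The controls themselves moved. On the scaled level, which allows times to be set side by side, Alas1 averaged 132 ± 39, 61.9 ± 39.2, 21.5 ± 6.22, 48.5 ± 14 and 69.6 ± 42.8 RPKM in 56Fe livers at 1, 2, 4, 9 and 12 months (SD, n = 3 each). Control livers averaged 209 ± 77.1, 86.6 ± 54.0, 180.2 ± 63.9, 20.5 ± 9.00 and 136 ± 83.4 RPKM at the same times. The lowest 56Fe group was thus that of 4 months and the lowest control group that of 9 months, at 21.5 scaled RPKM in 56Fe livers and 20.5 scaled RPKM in control livers. Within the controls, the log2 difference was -3.18 ± 0.52 at 9 against 4 months and 2.60 ± 0.52 at 12 against 9 months (SE), each with no overlap between the 2 times. The call at 9 against 4 months was lost without control replicate 3, and that at 12 against 9 months was lost without control replicate 2 or 3. Ordered by scaled mean of the gene sum, the 20 groups ran over a 17.6-fold range with 16O livers of 1 month at the top (361 RPKM). In that order 18 of the 19 pairs of neighbours overlapped.

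The annotation splits Alas1 into 13 transcripts, of which the protein-coding transcript with the most signal (ENSMUST00000074082, 2129 bases) carried 34.4% of the gene's mean RPKM. At 4 months it had 17.3, 9.79 and 4.22 RPKM in 56Fe livers, against 64.7, 138 and 141 RPKM in control livers. At 9 months it had 25.1, 15.8 and 15 RPKM in 56Fe livers and 49, 16.5 and 34 RPKM in 16O livers, against 8.11, 6.81 and 10.8 RPKM in control livers. These groups stayed apart in the coding transcript alone at both times. It also separated groups whose gene sums overlapped. At 1 month 56Fe livers had 0, 11.1 and 17.4 RPKM, below the 33.5, 56.5 and 80.8 RPKM of control livers. At 2 months 16O livers had 14.4, 19.8 and 35.8 RPKM and 28Si livers 10.3, 11.1 and 36.6 RPKM. Control livers then had less, 10.1, 3.49 and 7.17 RPKM. In 28Si livers of 4 months (74.3, 42.9 and 59.8 RPKM) it overlapped the controls. Its share of the gene ran between 0 and 61.9% over the libraries. How reads were shared among overlapping transcripts was set by the authors' mapping software, and in 1 of the 56Fe livers of 1 month this transcript was listed at 0.

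Clpx, which is not among the 9 enzymes, had the sign opposite to Alas1 in the 3 ion-control comparisons in which it passed the test. It encodes the unfoldase of the mitochondrial ClpXP protease, which acts on 5-aminolevulinate synthase, as shown in yeast, zebrafish and human cells. At 4 months Clpx had 91.1, 88.2 and 68.2 RPKM in 56Fe livers, against 38, 38.3 and 38.9 RPKM in control livers, a log2 fold change of 1.11 (adjusted p = 0.0141, limma). At 1 month it had 12.4, 10.9 and 13.5 RPKM in 16O livers, against 18.9, 20.04 and 28.3 RPKM in control livers, where the log2 fold change was -0.81 (adjusted p = 0.0132, limma). The 28Si livers of 1 month went the other way, with 66.7, 37.5 and 39 RPKM and a log2 fold change of 1.00 (adjusted p = 0.0434, limma). Alas1 was at -3.04, 0.78 and -1.51 in these comparisons. The 56Fe livers of 1 month did not show this, as Clpx (17.2, 14.5 and 13.3 RPKM, log2 fold change -0.53, adjusted p = 0.0584, limma) and Alas1 (-0.63) both had a negative sign.

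At 9 months Clpx was at 36.8, 38.4 and 68.9 RPKM in 56Fe livers, 61.3, 60.6 and 54.5 RPKM in 16O livers and 46.1, 54.0 and 57.9 RPKM in 28Si livers, every one below the 77.8, 73.0 and 71.1 RPKM of control livers. None of these passed the test, with log2 fold changes of -0.69, -0.36 and -0.37 and adjusted p-values of 0.0707, 0.163 and 0.281 in limma after 56Fe, 16O and 28Si. The controls again differed between times: Clpx was higher at 9 against 4 months (log2 difference 0.91, adjusted p = 0.00278, limma) and lower at 12 against 9 months (-1.15, adjusted p = 0.0013, limma). Over the 60 libraries the scaled log2 levels of Alas1 and Clpx had a Pearson correlation of -0.74, and of -0.52 once each group's mean was removed. Clpx was the second most opposed of the 10013 genes compared, after Ppp1r3c at -0.83. The libraries share controls and time points, and Clpx was singled out after its values were seen, so these correlations describe the libraries only.

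Genes of the circadian clock moved in the same livers. At 4 months Arntl, which encodes the clock activator BMAL1, had 2.35, 2.64 and 1.27 RPKM in 56Fe livers, against 0.511, 0.322 and 0.422 RPKM in control livers (log2 fold change 2.05, adjusted p = 0.0288, limma). Its partner Clock was higher there as well (0.76, adjusted p = 0.0306, limma). At 1 month Arntl had 3.80, 2.31 and 2.88 RPKM in 28Si livers, against 0.760, 0.635 and 0.710 RPKM in control livers (1.87, adjusted p = 0.00462, limma). In those 28Si livers 5 further clock genes were lower, the clock repressors Per1 (-1.86), Per2 (-1.54), Per3 (-1.77) and Ciart (-2.38) and the activator Dbp (-1.66). Of the 16 clock genes tested, 1 passed the test higher and 5 lower in 28Si livers of 1 month, and 2 passed higher and 0 lower in 56Fe livers of 4 months.

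After 16O at 1 month Dbp (0.56) was higher and Nr1d1 (-0.75) was lower. Over the 60 libraries Alas1 had a Pearson correlation of -0.53 with Arntl and of 0.65 with Per2, and of -0.47 and 0.40 within groups. The part of clock phase, or of the hour at which livers were taken, in the Alas1 and Clpx values was not tested.

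**Figure D3:**
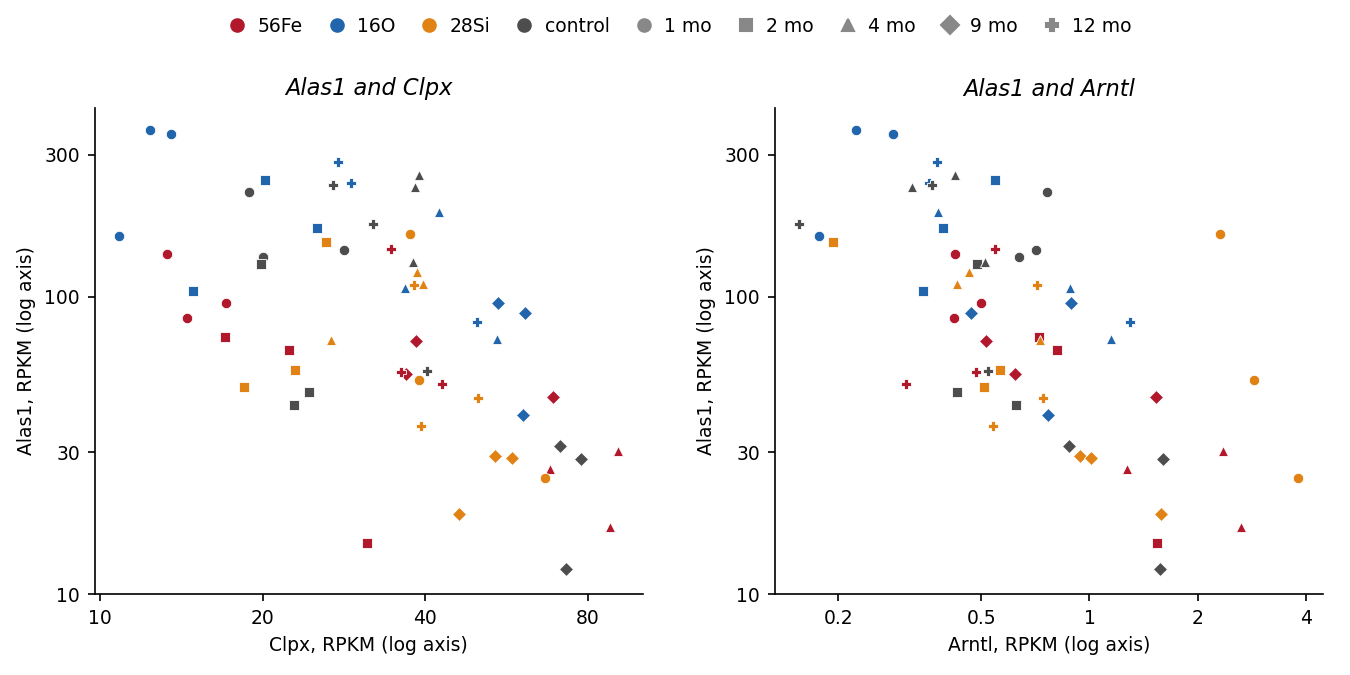
RPKM of Alas1 against Clpx and against Arntl in the 60 livers (log axes); colours mark the group (56Fe red, 16O blue, 28Si orange, control grey) and symbols the month. Livers with more Clpx had less Alas1 (Pearson correlation of the scaled log2 levels -0.74), and the 56Fe livers of 4 months and 28Si livers of 1 month lie at the high end of Arntl.

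The later enzymes of synthesis stayed close to their controls. Together with Blvrb, they gave 105 values over the 15 comparisons, of which 99 lay within 0.3 of 0 on the log2 scale and 12 had no overlap with the controls, beside the 14.3% given above for all genes. Alad (ENSMUSG00000028393, chr4:62509169-62519918), which joins 2 aminolevulinate molecules into porphobilinogen, was lower in 16O livers at 1 month, with 96.9, 94.4 and 107 RPKM against 109, 114 and 153 RPKM in control livers. The log2 fold change was -0.28 ± 0.12 (SE, n = 3 each). Uros (ENSMUSG00000030979, chr7:133686243-133710072), which closes the porphyrin ring, had 6.82, 5.94 and 7.13 RPKM in 28Si livers at 1 month, against 5.74, 5.74 and 5.04 RPKM in control livers. Both enzymes overlapped the controls in the other 14 comparisons.

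Urod (ENSMUSG00000028684, chr4:116989965-116994413), which decarboxylates uroporphyrinogen, varied least between the mice of a group, and its scaled group means lay within a 1.30-fold range. At 4 months it had 38.8, 38.6 and 41 RPKM in 56Fe livers and 40.3, 44.7 and 43.7 RPKM in 16O livers, all above the 36.8, 36.4 and 35.7 RPKM of control livers. The shifts were small, with log2 fold changes of 0.14 ± 0.08 and 0.23 ± 0.09 after 56Fe and 16O (SE, n = 3 each). Ppox (ENSMUSG00000062729, chr1:171275990-171281186), the mitochondrial oxidase before the last step, stood apart once, with 5.67, 6.34 and 6.49 RPKM in 56Fe livers at 2 months against 5.02, 5.61 and 5.22 RPKM in control livers. A retained-intron transcript carried 25.9% of the Ppox signal, and another carried 27.4% of the Uros signal.

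Cpox (ENSMUSG00000022742, chr16:58670292-58717636) encodes the mitochondrial coproporphyrinogen oxidase. At 9 months it had 44.9, 42.5 and 43.8 RPKM in 16O livers and 32.5, 24.3 and 46.1 RPKM in 28Si livers, all below the 56.5, 51.2 and 52.3 RPKM of control livers. The 56Fe livers, with 48.8, 34.3 and 59.8 RPKM, overlapped the controls. The log2 fold changes were -0.31 ± 0.10 after 16O and -0.56 ± 0.20 after 28Si (SE, n = 3 each), and the shift after 28Si was the largest of the 7 steadier enzymes in any comparison. At 4 months Cpox had 50.8, 43.3 and 45.4 RPKM in 16O livers, against 55.1, 50.9 and 60.9 RPKM in control livers, a log2 fold change of -0.27 ± 0.13 (SE, n = 3 each).

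Fech (ENSMUSG00000024588, on chromosome 18), the ferrochelatase that inserts iron into protoporphyrin, was lower in all 9 ion livers than in all 3 control livers at 12 months. It had 52.9, 63.0 and 65.8 RPKM in 56Fe livers, 56.1, 32.3 and 64.4 RPKM in 16O livers and 57.4, 64.6 and 58.9 RPKM in 28Si livers, against 70.5, 66.7 and 71.4 RPKM in control livers. The 3 comparisons rest on the same 3 control livers. The log2 fold changes were -0.25 ± 0.10, -0.40 ± 0.20 and -0.21 ± 0.11 after 56Fe, 16O and 28Si (SE, n = 3 each). Without the libraries high in Kupffer cell markers they were -0.14, -0.18 and -0.20. At 9 months Fech had 49.4, 53.3 and 56.7 RPKM in 28Si livers, against 63.4, 61.1 and 58.8 RPKM in control livers, which after scaling left a log2 fold change of -0.08 ± 0.09 (SE, n = 3 each).

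**Figure D4:**
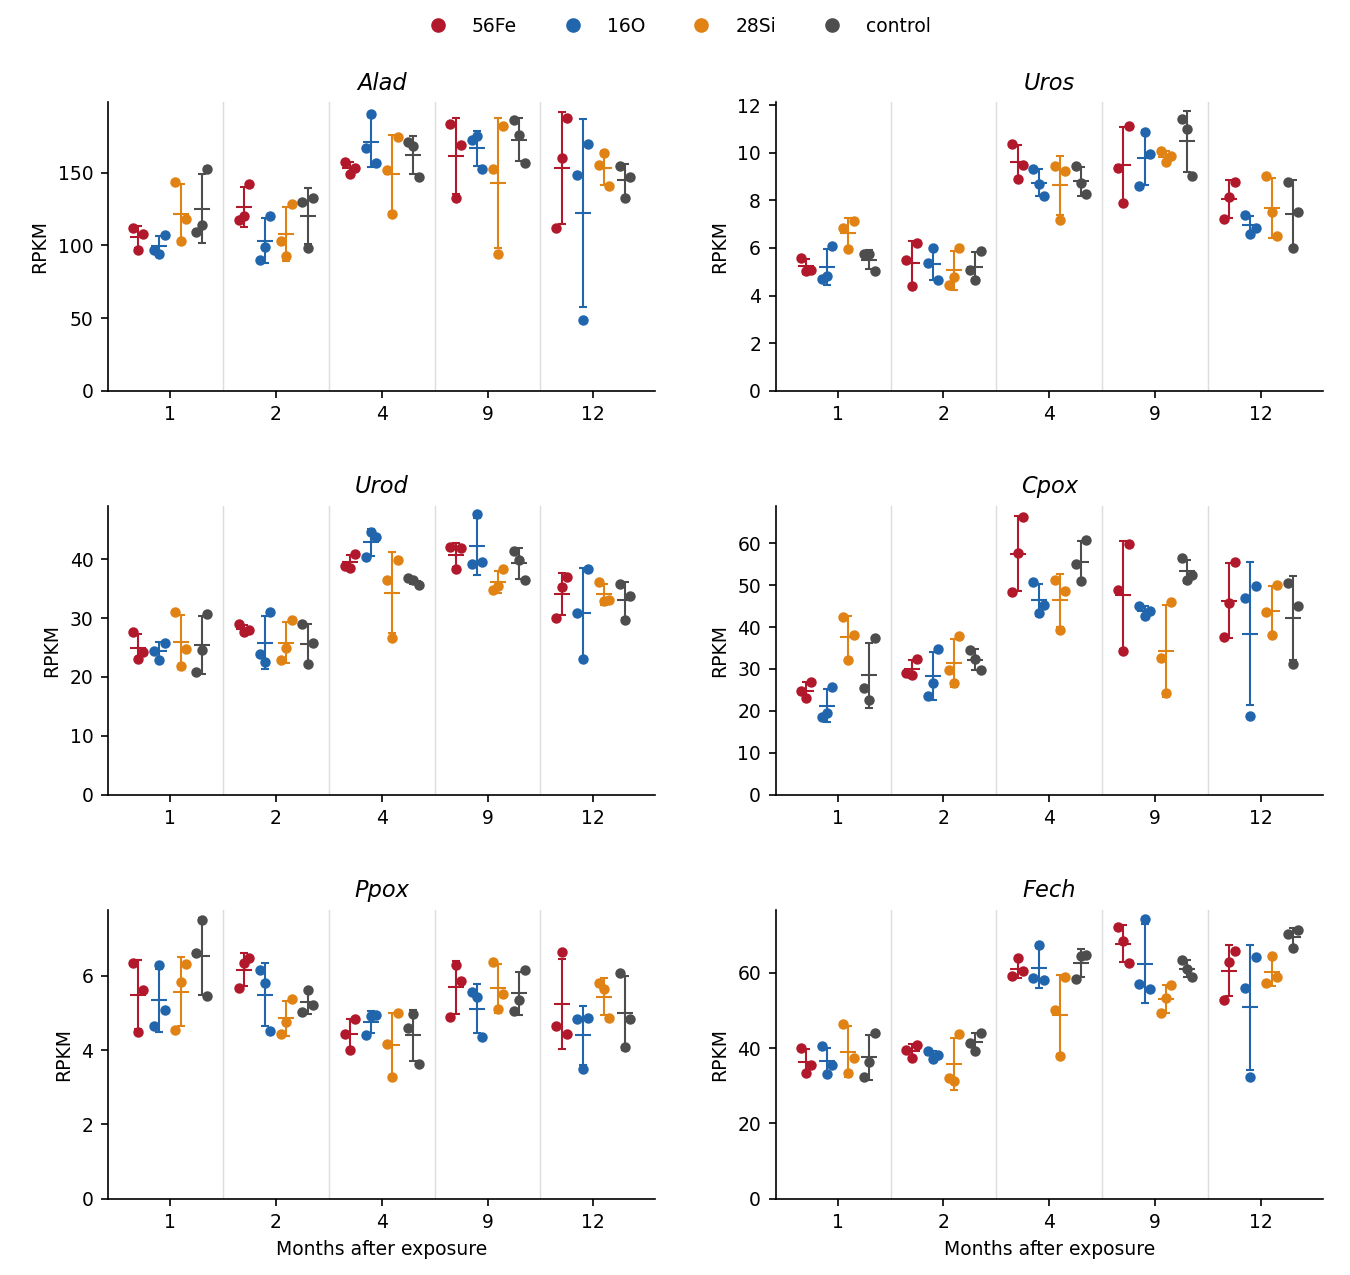
RPKM of Alad, Uros, Urod, Cpox, Ppox and Fech in each liver by month after exposure (56Fe red, 16O blue, 28Si orange, control grey); error bars give the mean ± SD of 3 livers. Fech at 12 months is lower in all 9 ion livers (32.3 to 65.8 RPKM) than in control livers (66.7 to 71.4 RPKM).

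Hmox1 (ENSMUSG00000005413, chr8:75093621-75100589), the inducible haem oxygenase, was separated from the controls in 1 of its 15 comparisons. At 9 months it had 5.79, 7.59 and 6.44 RPKM in 16O livers, against 10.1, 9.39 and 9.30 RPKM in control livers, a log2 fold change of -0.56 ± 0.13 (SE, n = 3 each). The 56Fe livers, at 9.96, 10.1 and 10.7 RPKM, and the 28Si livers, at 5.51, 10.7 and 7.10 RPKM, overlapped those controls. At 1 month Hmox1 had 7.39, 5.11 and 3.85 RPKM in 56Fe livers, against 2.49, 2.88 and 3.91 RPKM in control livers. There the log2 fold change was 0.80 ± 0.19 with 1 liver of each group in the overlap (SE, n = 3 each).

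At 4 months Hmox1 had 11.3, 8.93 and 8.08 RPKM in 56Fe livers, 14.2, 8.44 and 10.1 RPKM in 16O livers and 3.36, 3.13 and 4.58 RPKM in 28Si livers, against 6.62, 4.46 and 9.49 RPKM in control livers. The 28Si livers were below every 56Fe and 16O liver, and their log2 fold change against controls was -0.65 ± 0.26 (SE, n = 3 each). Kupffer cell markers were lower in the same 28Si livers. Of the 13 markers tested all 13 had a negative log2 fold change, with a median of -0.56, and 1 passed the test, Cd5l (-0.74, adjusted p = 0.0285, limma). As deposited, without rescaling, their summed level was 99.9 to 127 RPKM in 28Si livers and 169.5 to 197 RPKM in control livers. The part of these cells in the Hmox1 values was not tested.

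At 12 months Hmox1 was spread over 46, 6.89 and 10.9 RPKM in 56Fe livers, 3.82, 67.3 and 5.21 RPKM in 16O livers, 9.99, 7.61 and 5.83 RPKM in 28Si livers and 6.45, 16.1 and 4.40 RPKM in control livers. The high value of the 56Fe, 16O and control groups came in each case from the library with the high Kupffer cell markers. The macrophage gene Adgre1 had 72.3, 37.1 and 30.8 RPKM in those 56Fe, 16O and control libraries, and 1.74 to 7.67 RPKM in the remaining 9 libraries of that time. Saa1, an acute-phase gene of hepatocytes, had 3686, 15583 and 698 RPKM in the same 3 libraries, against 18 to 189.7 RPKM in the other 9. Clec4f, which marks resident Kupffer cells, was not raised there, at 17.4, 24.8 and 31.8 RPKM beside 17.4 to 41 RPKM. Without these 3 libraries the Hmox1 log2 fold changes were 0.69 rather than 0.92 for 56Fe, -0.19 rather than 0.63 for 16O and 0.55 rather than -0.02 for 28Si. Summed markers of lymphocytes and neutrophils also had a high maximum in the 56Fe, 16O and control groups of 12 months. It was 80.6 RPKM in 56Fe, 99.1 RPKM in 16O and 24.02 RPKM in control livers, beside group medians of 3.14, 2.39 and 6.29 RPKM. In 28Si livers of that time the maximum was 3.80 RPKM. The part of each cell type in the Hmox1 values was not tested.

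Alad, Cpox, Urod, Fech and Blvrb were low in the library where Hmox1 was highest. In the 16O library of 12 months with 67.3 RPKM of Hmox1, Alad was at 48.9 RPKM against 148 and 170.04 RPKM in the other 16O livers, and Fech was at 32.3 RPKM against 56.1 and 64.4 RPKM. Blvrb was at 24.8 RPKM there, against 37.7 and 47.6 RPKM. Over the 60 libraries, within groups, Hmox1 had a Pearson correlation of -0.73 with Alad, -0.63 with Cpox, -0.58 with Fech and -0.43 with Urod. Without the 3 libraries high in Kupffer cell markers these were -0.10, -0.06, 0.06 and 0.30. The correlation of Hmox1 with Adgre1 within groups was 0.78 with those libraries and 0.23 without them, and that of Alad with Saa1 was -0.71 with them and -0.45 without them.

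**Figure D5:**
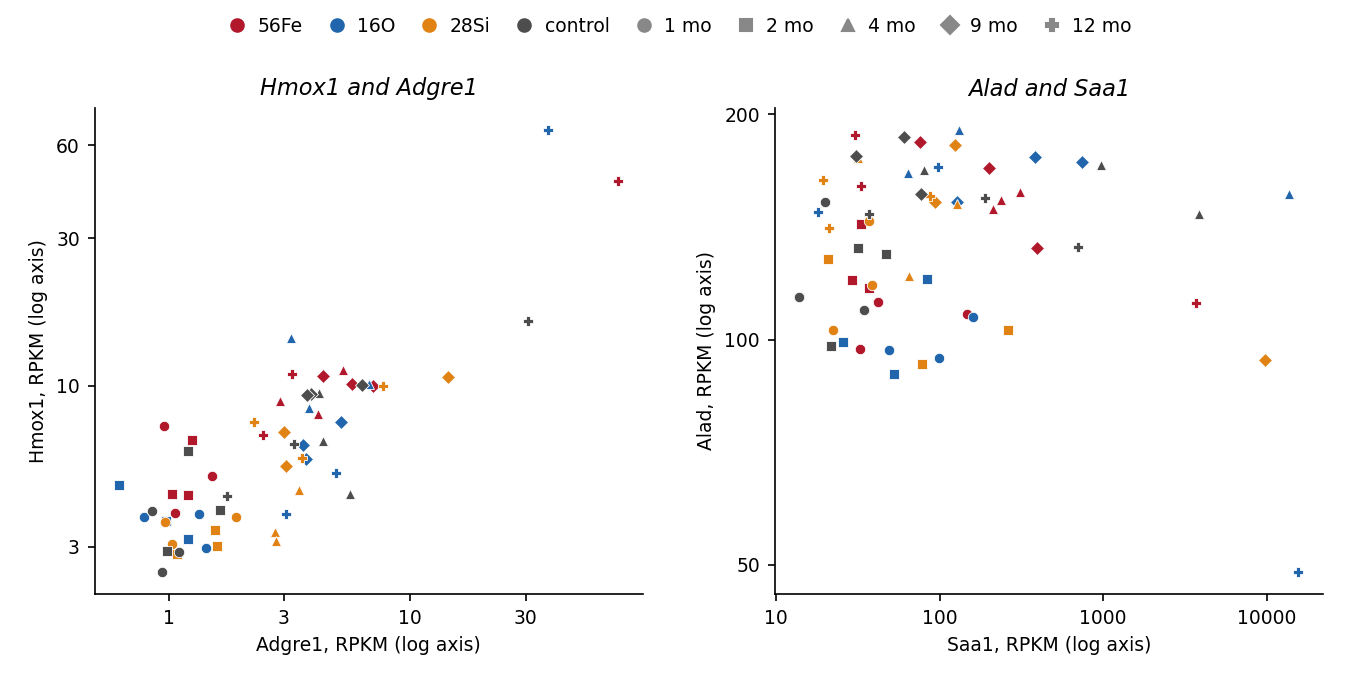
RPKM of Hmox1 against the macrophage gene Adgre1, and of Alad against the acute-phase gene Saa1, in the 60 livers (log axes; 56Fe red, 16O blue, 28Si orange, control grey; symbols mark the month). The 56Fe, 16O and control libraries of 12 months with 72.3, 37.1 and 30.8 RPKM of Adgre1 have the 3 highest Hmox1 values of all groups, 46, 67.3 and 16.1 RPKM.

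Blvrb (ENSMUSG00000040466, chr7:27447978-27466144), a flavin and biliverdin-IXbeta reductase, overlapped the controls in all 15 comparisons. Its livers ran between 20.9 and 56.7 RPKM, its scaled group means lay within a 1.29-fold range, and 2 coding transcripts shared the signal (51.6% and 43.4%). Of the related enzymes outside the 9, Hmox2, Blvra and Alas2 gave no call against controls either. Hmox2, the constitutive haem oxygenase, ran between 3.63 and 15.7 RPKM and Blvra, the main adult biliverdin reductase, between 3.41 and 15.2 RPKM. Alas2, the synthase of red cell precursors, ran between 14.7 and 108 RPKM. Among the erythroid markers in the table, 5 of 11 averaged under 0.5 RPKM, among them Slc4a1, Gata1, Epb42 and Rhag. The globin genes were well detected, with Hbb-bs at 6.21 to 318 RPKM and Hba-a1 at 2.70 to 91 RPKM, each highest in replicate 1 of 56Fe at 4 months, and the summed list ran between 29.7 and 550.1 RPKM.

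Set directly against each other, and as a description only, the ions gave calls for Alas1, Cpox and Hmox1 at 1 month. Alas1 was higher in 16O livers than in 28Si livers by 2.28 ± 0.55 on the log2 scale, though 1 liver of each group overlapped. Cpox was lower in 16O livers (18.5, 19.4 and 25.7 RPKM) than in 28Si livers (42.5, 32 and 38.1 RPKM), by -0.75 ± 0.14 on the log2 scale, and lower in 56Fe livers (24.6, 23 and 26.9 RPKM) than in those 28Si livers, by -0.53 ± 0.14. Hmox1 was higher in 56Fe than in 28Si livers by 0.65 ± 0.17, with no overlap. Clpx had a log2 difference of -1.56 for 56Fe against 28Si (adjusted p = 4.56e-05, limma) and of -1.83 for 16O against 28Si (adjusted p = 4.92e-06, limma).

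At 4 months Alas1 was lower in 56Fe livers than in 28Si livers by -2.22 ± 0.34 and than in 16O livers by -2.22 ± 0.34 on the log2 scale, with no overlap in either. Clpx was higher in 56Fe livers than in 28Si livers (1.08, adjusted p = 0.00506, limma) and than in 16O livers (0.93, adjusted p = 0.0406, limma). The 6 values of the 9 enzymes that passed among ions were those just given for Alas1, Cpox and Hmox1, out of 135. The share of all genes called for 56Fe against 28Si was 9.36% at 1 month, 1.17% at 2 months, 0.998% at 4 months, 0.255% at 9 months and 0% at 12 months. It was 0.199%, 0.374%, 0.0688%, 0% and 0% for 56Fe against 16O at those times. For 16O against 28Si it was 13.8%, 0.573%, 0.318%, 0.366% and 0%. No enzyme passed at 2, 9 or 12 months. These calls differed in how far they rested on single livers. Cpox for 16O against 28Si at 1 month was called whichever replicate was left out, but Alas1 in 56Fe livers of 4 months was not called against 16O livers in 9 of the 12 fits without 1 replicate, nor against 28Si livers in 3 of them. At 1 month Cpox for 56Fe against 28Si was lost in 5 of the 12, Hmox1 for 56Fe against 28Si in 4 and Alas1 for 16O against 28Si in 2.

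Between successive times of 1 group, 9 values of the enzymes passed. Alas1 gave 2 of them, in the controls, with the differences given above. The other 7 were at 4 against 2 months, a step in which the share of reads in transcripts also changed and in which 46.6% of all genes were called in 56Fe livers, 39.1% in 16O livers, 42.4% in 28Si livers and 41.2% in control livers. Ppox was lower at that step in all 4 groups on the scaled level, by -0.91 in 56Fe, -0.71 in 16O, -0.62 in 28Si and -0.73 in control livers. With RPKM as deposited the median gene was 0.36 to 0.52 higher on the log2 scale at this step, and Ppox was then called in 56Fe livers only. Uros was higher in 56Fe (0.39) and 28Si livers (0.37), and Cpox was higher in 56Fe livers (0.48).

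At 2 against 1 months, the share of genes called was 0.863% in 56Fe, 0% in 16O, 1.54% in 28Si and 0.572% in control livers. At 9 against 4 months it was 0.243%, 0%, 0.227% and 2.6% in these groups, and at 12 against 9 months it was 0.00838%, 0.126%, 4.75% and 3.46%. Over these comparisons Alas1 in controls was the only enzyme called, at the last 2 steps.

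The other genes that handle haem, its precursors and iron were followed in 6 lists, with 48 genes outside the 9 enzymes. Over the 15 ion-control comparisons they gave 720 values, of which 3 passed the test higher and 5 lower, and 107 lay under an unadjusted p of 0.05. Of all genes tested, 244 of 11395 to 3032 of 11343 lay under that p in single comparisons, so nothing is read from the 107. Of the 16 genes of porphyrin and haem transport only Clpx passed, in the 3 comparisons above. Among 17 iron genes, Tfrc and Hamp2 passed, each in 2 comparisons. Tfrc, the transferrin receptor, had 4.43, 3.57 and 3.75 RPKM in 56Fe livers and 4.81, 6.03 and 5.43 RPKM in 16O livers at 1 month, against 10.01, 9.16 and 9.87 RPKM in control livers. Its log2 fold changes were -1.26 after 56Fe (adjusted p = 0.00179, limma) and -0.79 after 16O (adjusted p = 0.0320, limma).

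Hamp2, a hepcidin-like gene, was lower at 9 months, with 2.71, 0.488 and 4.53 RPKM in 56Fe livers and 0.453, 0.945 and 0.712 RPKM in 16O livers, against 9.08, 54.4 and 30.7 RPKM in control livers. The log2 fold changes were -3.67 after 56Fe (adjusted p = 0.0435, limma) and -5.02 after 16O (adjusted p = 0.00299, limma). Hamp, which encodes hepcidin, the hormone that limits iron release, did not pass there (-0.16 and -0.19 after 56Fe and 16O). Reads of these 2 similar genes may have been shared between them. Among 5 scavenging genes, Lrp1, the receptor for haem bound to hemopexin, was higher in 56Fe livers at 9 months, with 147, 165 and 181 RPKM against 88.7, 78.7 and 115 RPKM in control livers (0.81, adjusted p = 0.0379, limma). The 6 genes of bilirubin conjugation and export gave no call in limma, with 24 of 90 values under an unadjusted p of 0.05. Hmox2 and Blvra gave none, with 1 such value of 30. The range over all genes under that p is given above, and nothing is read from these counts.

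Cytochrome P450 enzymes use much of the haem made in liver. A list of 19 genes held P450 genes and also Cat, Tdo2, Cyb5a and Por, so its counts are not of P450 genes alone. Of these 19 genes, 16 to 18 were tested in each comparison, and of their 263 values 4 passed higher and 14 lower. Por, the reductase that passes electrons to P450 enzymes, took the same direction as Alas1 wherever it passed. At 4 months it had 44.6, 51.5 and 62.6 RPKM in 56Fe livers, against 103, 89.3 and 117 RPKM in control livers (-0.94, adjusted p = 0.0398, limma). At 9 months it had 121, 109.97 and 92.5 RPKM in 56Fe livers, against 62.1, 48.9 and 49.9 RPKM in control livers (1.00, adjusted p = 0.0280, limma). At 1 month it had 62.3, 43 and 44.5 RPKM in 28Si livers, against 74.6, 87.1 and 100.4 RPKM in control livers (-0.87, adjusted p = 0.0199, limma).

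Cyp7a1, the rate-limiting enzyme of bile acid synthesis, had 27.8, 23.1 and 36 RPKM in 56Fe livers at 4 months, against 117, 154 and 82.5 RPKM in control livers (-1.98, adjusted p = 0.0141, limma). It was also lower in 56Fe livers at 1 month (-0.92, adjusted p = 0.0453, limma). The fatty acid hydroxylase gene Cyp4a10 was lower at 1 month after 56Fe (-1.93) and 16O (-2.32) and at 9 months after 56Fe (-2.28) and 16O (-2.50). Cyp2b10, a drug-inducible P450, was lower at 9 months after 56Fe (-1.47) and 16O (-1.85), where Alas1 was higher, and so was its paralog Cyp2b9 (-5.70 and -5.64). Reads may have been shared between these paralogs.

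The enzymes differed in how they followed one another. Over the 60 libraries and on the scaled log2 level, the genes most like Alas1 were Zfp970 (Pearson correlation 0.87), Arhgef26 (0.80), Onecut1 (0.80), Amn1 (0.78) and Zfp809 (0.78), none of which is an enzyme of haem synthesis. Alas1 itself had correlations of -0.52 with Uros, -0.38 with Urod, -0.33 with Blvrb, -0.29 with Cpox, -0.26 with Hmox1, -0.22 with Fech, -0.10 with Alad and 0.24 with Ppox, and of -0.29 to 0.05 within groups. Alad was positively correlated with Blvrb (0.62, or 0.66 within groups) and Urod (0.56, or 0.61 within groups). The genes most like Hmox1 were Cfp, Btg2, Ptpn6, Pkm and Tlr2 (0.81 to 0.83). Those most like Alad were Sgk2, Xkr9, Car3, Inmt and Hsd3b2 (0.82 to 0.86), and Alad and Cpox were alike at 0.60, or 0.46 without the 3 libraries high in Kupffer cell markers. The most alike genes were Apoc4 for Urod (0.85), Prmt7 for Uros (0.74), Ephx2 for Cpox (0.78), Sugp2 for Ppox (0.88), Kat2b for Fech (0.74) and Apoa2 for Blvrb (0.78).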

How the data were processed

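RNA of 60 mouse livers, depleted of ribosomal RNA, had been sequenced as paired reads, and the authors mapped them to GRCm38 in CLC Genomics Workbench and deposited RPKM per transcript, 123811 transcripts in all. The authors' mean columns were not used. Here the RPKM of a gene's transcripts were added (38204 genes), so reads shared between overlapping transcripts or similar genes may count to either. A gene was kept if 3 or more libraries of the fit reached 0.5 RPKM. Scaling between libraries used a trimmed mean without weights (30% of log ratios and 5% of levels trimmed), and log2(RPKM + 0.1) was tested with limma 3.58.1 (empirical Bayes with trend, two-sided, R 4.3.3), with Benjamini-Hochberg adjustment over all genes and calls at an adjusted p of at most 0.05. The study's edgeR test needs read counts and was not used on RPKM. Fits took 6 libraries for an ion against same-time controls, 12 for the ions against one another and 15 for successive times within a group.

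Members and lists were chosen with earlier results of these data known. All 9 enzymes are named, and other genes where they passed the test, complete the pathway or mark the clock or a cell type beside an enzyme, and a few genes that meet this rule are not reported here. For likeness, the 5 genes with the highest Pearson correlation over the 60 libraries were taken, among genes with a mean of at least 1 RPKM. P-values set a difference against the spread between livers within groups, with 3 livers a group. That spread is pooled over the groups of a fit and moderated over all genes. No batch is named in the sources used here. Other pseudocounts, filters, scalings, limma-voom on estimated reads, and fits without each replicate were tried. In simulated data the median fitted fold change lay close to that put in. That simulation used independent noise without outlier libraries or shifts between libraries, so it does not cover these. Replicate numbers did not come from a stated pairing. At 12 months after 16O, all 3 same-numbered pairs of 16O and control libraries deviated together (correlations 0.37, 0.52 and 0.25), and with the replicate as a block no enzyme was called there, as without it. Replicate 2 of both groups was among the 3 libraries high in Kupffer cell markers, and the part of this in the correlations was not tested.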

Additional observations from a re-analysis of the deposited data

Results flagged for a closer look

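Each group held 3 livers, so no liver was tested as an outlier. Alas1 was lower than controls in every 56Fe liver at 4 months (log2 fold change -3.04) and higher in every 56Fe liver at 9 months (1.33), and the difference between the 2 times was not tested.

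Clpx after 56Fe was lower in every liver at 1 month (-0.53), higher at 4 months (1.11) and lower at 9 months (-0.69), and these differences between times were not tested. At 1 month it was lower in every 16O liver (-0.81) and higher in every 28Si liver (1.00), and at 9 months lower in every 28Si liver (-0.37). Tested directly in limma, Clpx was lower at 1 month in 56Fe than in 28Si livers (-1.56, adjusted p = 4.56e-05) and in 16O than in 28Si livers (-1.83, adjusted p = 4.92e-06). At 4 months it was higher in 56Fe than in 28Si livers (1.08, adjusted p = 0.00506, limma) and than in 16O livers (0.93, adjusted p = 0.0406, limma).

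Tfrc after 56Fe was lower in every liver at 1 month (-1.26), higher at 2 months (0.70) and lower at 4 months (-0.49), with no test between times. At 1 month it was lower in 56Fe than in 28Si livers (-1.11, adjusted p = 0.00152, limma) and in 16O than in 28Si livers (-0.63, adjusted p = 0.0252, limma).

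Arntl after 56Fe was lower in every liver at 1 month (-0.53) and higher at 2 months (0.83) and 4 months (2.05), again with no test between times. At 1 month it was lower in every 16O liver (-1.27) and higher in every 28Si liver (1.87). Directly compared at 1 month, Arntl was lower in 56Fe than in 28Si livers (-2.42, adjusted p = 2.52e-05, limma) and in 16O than in 28Si livers (-3.16, adjusted p = 8.31e-07, limma).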

How the results depend on the processing

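Over 16 alternatives the log2 fold change of Alas1 in 56Fe livers at 4 months was -3.36 to -2.79, a description since the enzymes were selected on this contrast. No value that passed the test changed sign. Of the 135 enzyme values 60 did so in at least 1 alternative, 55 of them at 0.3 or less in size. The other 5 were Alas1 at 2 months after 56Fe (-1.06 to 0.13) and 28Si (-0.07 to 0.80) and at 12 months after 16O (-0.10 to 1.45), Hmox1 at 12 months after 16O (-0.76 to 1.37) and Alad there (-0.57 to 0.16). For 56Fe against controls 1 enzyme value was called, and 2 with all 12 libraries of a time (Hmox1 at 1 month added) or with limma-voom (Alas1 at 9 months added). Leaving out a replicate gave 1 to 2, with Alas1 at 9 months added without control replicate 3. For 28Si the count of 0 became 2 with RPKM as deposited (Alas1 and Hmox1 at 4 months), and 0 to 1 without single replicates, the 1 being Alas1 at 4 months without control replicate 1. Samples with the same replicate number share only that number in the sources used here, and with a replicate block the 16O count of 0 became 1 (Alas1 at 9 months). Between ions, the 6 calls became 1 to 8 without single replicates. Between times, the 9 calls became 19 with RPKM as deposited, which leaves the step in the share of reads in transcripts uncorrected, and 7 to 11 without single replicates. For the other haem and iron genes, the 8 calls became 5 with no filter on low values and 4 to 16 without single replicates, 16 being without control replicate 3. Without the 3 libraries high in Kupffer cell markers, an alternative added after seeing the data, the counts were 1 for 56Fe, 0 for 16O, 0 for 28Si, 6 between ions, 12 between times and 8 for the other genes. Clpx lost its call in 2 of 16 alternatives after 56Fe at 4 months, in 3 after 16O at 1 month and in 8 after 28Si at 1 month. Hamp2 lost it in 9 after 56Fe and in 2 after 16O, limma-voom among them in both, and Tfrc in 4 after 16O at 1 month and in 0 after 56Fe. With 3 livers a group, differences of Alas1 and Hmox1 below their spread between mice could not be told from that spread.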
